A study of Homo sapiens with 24 samples.

Results

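Gene expression was compared between 2 human cancer cell lines in their vehicle-treated parent state: A375, which comes from a melanoma, and HCT116, which comes from a colon cancer. The libraries were chosen by their labels, which give the parent line, a wild type genotype and DMSO as the treatment, and 6 of the 24 libraries of the series met that rule, 3 for each line. Cells were seeded in 12-well plates, received DMSO, the solvent of the test compound, for 24 h, and gave poly(A) RNA for sequencing. The other 18 libraries came from the same lines after 24 h with 0.1 µM of the compound DS07551382, or from 1 knockout clone per line of PTDSS2, which encodes a phosphatidylserine synthase, with DMSO or the compound. Wild type here means that PTDSS2 was not edited, since both lines are cancer lines with mutations of their own. Each cancer type is represented by 1 line, so what belongs to melanoma or to colon cancer cannot be told apart from what belongs to A375 or HCT116, and line and any batch cannot be told apart. Whether the 3 libraries of a line came from 3 cultures is not stated in the labels; the p-values below rest on the spread between libraries, which may be technical.

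Melanocytes arise from the neural crest, and SOX10, PAX3 and MITF are the transcription factors that set up their identity and switch on the enzymes of pigment synthesis. Colon epithelium is held together by tight junctions, adherens junctions and desmosomes, carries simple keratins, and is renewed from stem cells kept by Wnt signalling. Melanoma cells can lose pigment genes while they keep or lose SOX10, and colon cancer cells can lose the genes of mature enterocytes and goblet cells while they keep junction genes.

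Levels are given as TPM, the abundance of a gene's transcripts scaled for length and library size. Differences are given as the log2 ratio of A375 over HCT116 from a model fitted to the counts. The value after ±, marked SE, approximates a standard error and was not reported by the model. It was worked back from the log2 ratio and the F value of edgeR's test for any difference. The 3 HCT116 libraries held 9360927 to 10002741 estimated counts and the 3 A375 libraries held 7705622 to 8280732. Of 13814 genes tested, 11523 (83.4%) differed between the lines at an adjusted p under 0.05 by edgeR's quasi-likelihood test, 5938 higher in A375 (43%) and 5585 higher in HCT116 (40.4%). The libraries of one line did not overlap with those of the other in TPM for 11554 of the tested genes (83.6%), and the median size of a difference in either direction was 0.65. The groups below are therefore described by a stricter test that asks whether a difference exceeds 2-fold. That test was passed by 4098 genes (29.7%), 2187 higher in A375 (15.8%) and 1911 higher in HCT116 (13.8%), and the median difference of all tested genes was 0.03. Of 25343 genes in the files, 1384 (5.46%) reached 1 TPM in all 3 libraries of A375 only and 1187 (4.68%) in those of HCT116 only. Among common reference genes 1 of 20 passed the 2-fold test, ACTG1, a cytoplasmic actin, which was higher in HCT116 at -1.11 ± 0.03 (SE).

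**Figure D1:**
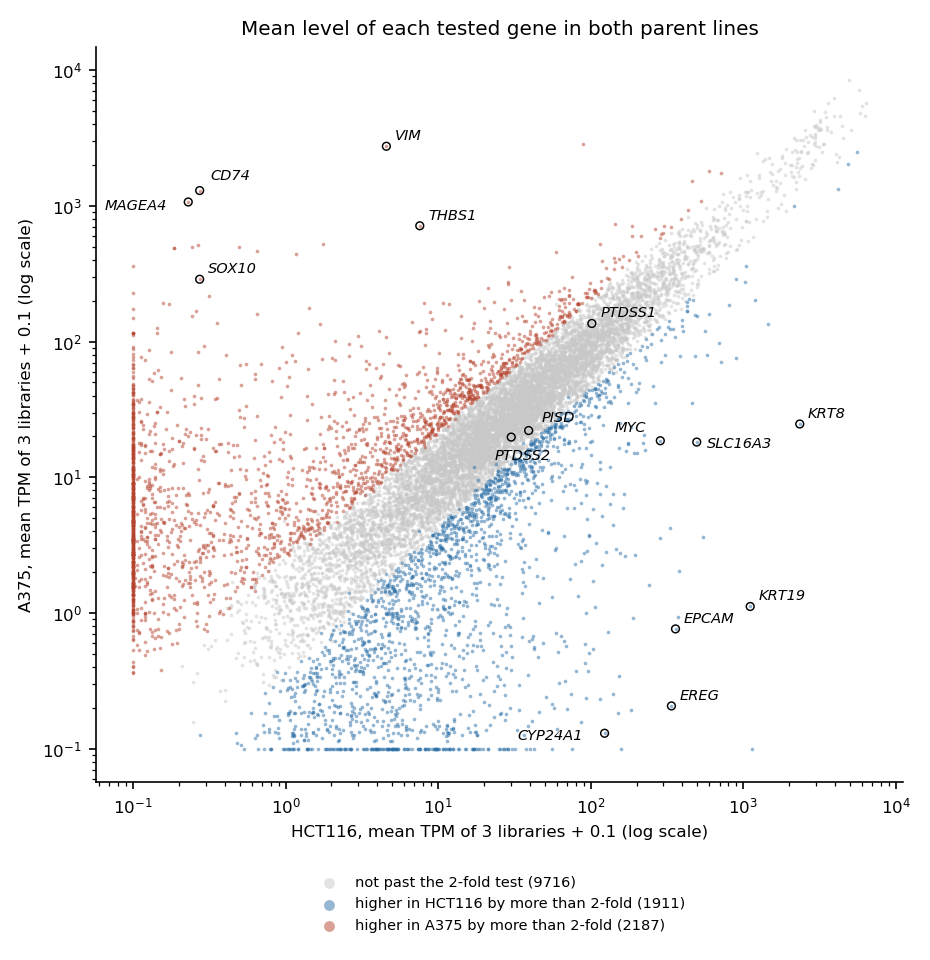
Mean TPM of 3 libraries plus 0.1 in HCT116 (x axis) against A375 (y axis), both on log scales, for each of the 13814 genes tested. Colour marks the 2187 genes higher in A375 and the 1911 higher in HCT116 by more than 2-fold, and the labelled PTDSS1, PTDSS2 and PISD lie among those that did not pass.

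The labels of both lines were first read against marker genes. SOX10 was at 0.29, 0 and 0.23 TPM in the 3 HCT116 libraries and at 289, 291 and 283 TPM in the 3 A375 libraries. EPCAM, an adhesion molecule of epithelial cells, showed the reverse, with 360, 366 and 354 TPM in HCT116 and 0.89, 0.95 and 0.15 TPM in A375. No library of one line overlapped with the other for either gene, as for 83.6% of all tested genes. The differences were 10.66 ± 0.10 and -9.02 ± 0.10 (SE). Both SEs understate the counting error, since each gene had few counts in its lower line. Of the defining markers of other cell types, PTPRC, the leukocyte surface phosphatase, had 1 count in all HCT116 libraries and 6 in those of A375, PECAM1 of endothelium had 1 and 2, and COL3A1 of fibroblasts had 0 in both. Of the marker lists 15 of 16 immune, 7 of 10 endothelial and 5 of 12 fibroblast genes were below the count filter in these libraries. Their summed levels ranged from 6.16 to 7.71 TPM in HCT116 and from 16.03 to 17.7 TPM in A375 for the immune list, from 4.78 to 6.05 and 15.4 to 17.7 TPM for the endothelial list, and from 21.95 to 25.4 and 16.9 to 17.3 TPM for the fibroblast list. The members above the filter mostly differed between the lines, where 29.7% of all tested genes passed the 2-fold test. A gene can pass the filter on 1 line alone, so for low genes such a difference is in part set by the filter. CD68 of macrophages, the 1 immune gene tested, was at 7.08, 4.69 and 5.55 TPM in HCT116 and at 15.3, 14.6 and 12.54 TPM in A375, and its difference of 1.33 ± 0.16 (SE) passed the 2-fold test, but not without HCT116 replicate 2 or 3 or A375 replicate 1, at 1.197, 1.28 and 1.27. Of 3 endothelial genes tested, the receptors ROBO4 and KDR were higher in A375 by more than 2-fold, at 7.44 ± 0.29 and 4.62 ± 0.36 (SE). Of 7 fibroblast genes tested 6 passed: LUM, DCN and PDGFRA, with 0 counts in HCT116, and PDGFRB were higher in A375, where none exceeded 5.2 TPM, and FBLN1 and COL1A1 were higher in HCT116 at -2.13 ± 0.16 and -3.27 ± 0.18 (SE). Whether other cells had a part in these levels was not tested.

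Beyond SOX10, A375 held most of the neural crest transcription factors, while the pigment enzymes were at or near 0. Of 24 listed melanocyte and neural crest factors 20 were tested, and their median difference was 3.45. By more than 2-fold, 12 were higher in A375 (15.8% of all genes) and 4 in HCT116 (13.8% of all genes). MITF, the master regulator of pigment genes, was at 0.77, 0.86 and 0.77 TPM in HCT116 and at 14.4, 12.96 and 13.5 TPM in A375, a difference of 4.198 ± 0.15 (SE). PAX3 was at 0 in all 3 HCT116 libraries and at 9.81, 12.0 and 10.5 TPM in A375, at least 128-fold higher. SOX5, a SOX factor of the neural crest, was likewise at 0 in HCT116 and at 65.3, 65.0 and 60.0 TPM in A375, at least 1117-fold higher, and TFAP2B, an AP-2 factor, at least 759-fold higher. FOXD3, an early neural crest factor, had 1 count in HCT116 and 373 in A375. TFAP2A, the AP-2 factor expressed in both epidermis and neural crest, did not differ beyond its error, at 0.01 ± 0.12 (SE). SOX9 went the other way, with 52.1, 56.6 and 58.8 TPM in HCT116 and 1.2, 1.27 and 1.18 TPM in A375; it is a factor of both neural crest and intestinal crypts. MSX1 and NR2F1, 2 more factors used in neural crest, were also higher in HCT116, at -2.40 ± 0.07 and -2.41 ± 0.07 (SE).

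MLANA, TYR, TYRP1 and DCT, pigment genes proper, were below the count filter in these libraries. MLANA, the melanoma antigen melan-A, was at 0.34, 0.18 and 0.83 TPM in A375 and at 0.28, 0.29 and 0 TPM in HCT116. TYR, the tyrosinase that starts melanin synthesis, had 0 counts in all 6 libraries, and the related enzymes TYRP1 and DCT had 2 and 4 counts over the 3 A375 libraries. PMEL, the fibril protein of melanosomes, was higher in HCT116, at 2.76, 1.96 and 3.63 TPM against 0.27, 0.14 and 0.46 TPM in A375. Of the defining markers of pigment cells, SOX10, PAX3 and MITF were thus present in A375, and TYR, TYRP1, DCT, MLANA and PMEL were at or near 0. Other genes of the same list were high in A375. Of the 19 tested 12 passed the 2-fold test in favour of A375 (15.8% of all genes) and 2 in favour of HCT116 (13.8% of all genes), with a median of 2.24. These values leave out the 12 of 31 listed genes below the count filter. In a fit of log2(TPM + 1) with no filter the median was 0.27. MIA, a secreted protein first isolated from melanoma, was at 365, 348 and 358 TPM in A375 and at 0 in HCT116, at least 764-fold higher. ERBB3, a neuregulin receptor, was at 14.9, 18.7 and 16.7 TPM in HCT116 and at 127, 124 and 126 TPM in A375. CSPG4, a melanoma surface proteoglycan, and MCAM, a melanoma adhesion molecule, differed by 3.94 ± 0.04 and 2.24 ± 0.05 (SE).

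The promoter of TYR is shown because its letters can be read beside these counts. MITF and its relatives bind E-boxes, and the 6 letters CATGTG, which read as CACATG on the other strand, form the core of the M-box described in pigment gene promoters. In the RefSeq promoter windows of build GRCh38.p14, which run from 250 bases before to 50 after each gene's start, 24 of the 31 listed pigment cell genes had an entry and 9 of these 24 (37.5%) held the letters, against 11.2% of all 27305 promoters. The 250 bases before the start of TYR (chr11:89177625-89177874, plus strand) hold them at 104 and 12 bases before the start, in capitals here.
TYR: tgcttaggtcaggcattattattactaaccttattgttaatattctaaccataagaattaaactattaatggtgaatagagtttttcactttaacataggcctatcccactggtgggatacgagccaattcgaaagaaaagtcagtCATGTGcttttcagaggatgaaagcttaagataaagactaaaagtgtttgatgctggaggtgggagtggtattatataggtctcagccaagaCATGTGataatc
A match of letters is a description and not evidence of binding.

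Genes used to mark undifferentiated melanoma were mostly higher in A375. Of 28 tested, 18 were higher in A375 (15.8% of all genes) and 5 in HCT116 (13.8% of all genes) by more than 2-fold, with a median of 2.55. AXL, a receptor tyrosine kinase, was at 45.3, 48.1 and 43.6 TPM in HCT116 and at 174, 178 and 177 TPM in A375. NGFR, the low-affinity nerve growth factor receptor, was at 4.90, 4.37 and 4.75 TPM in HCT116 and at 81.2, 84.6 and 80.2 TPM in A375. WNT5A, a non-canonical Wnt ligand, had 0 counts in HCT116 and 20.9, 19.6 and 20.9 TPM in A375, at least 582-fold higher. THBS1, the matrix protein thrombospondin, was at 7.07, 7.97 and 7.41 TPM in HCT116 and at 709, 701 and 727 TPM in A375. TNC, the matrix protein tenascin C, was at 191, 189 and 187 TPM in A375 and at no more than 0.2 TPM in HCT116. EGFR did not follow them, with 23.8, 24.9 and 24.9 TPM in HCT116 and 6.89, 7.03 and 6.73 TPM in A375. NT5E, an ectonucleotidase, and F2RL1, a protease-activated receptor, were also higher in HCT116, at -1.37 ± 0.06 and -4.38 ± 0.07 (SE).

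**Figure D2:**
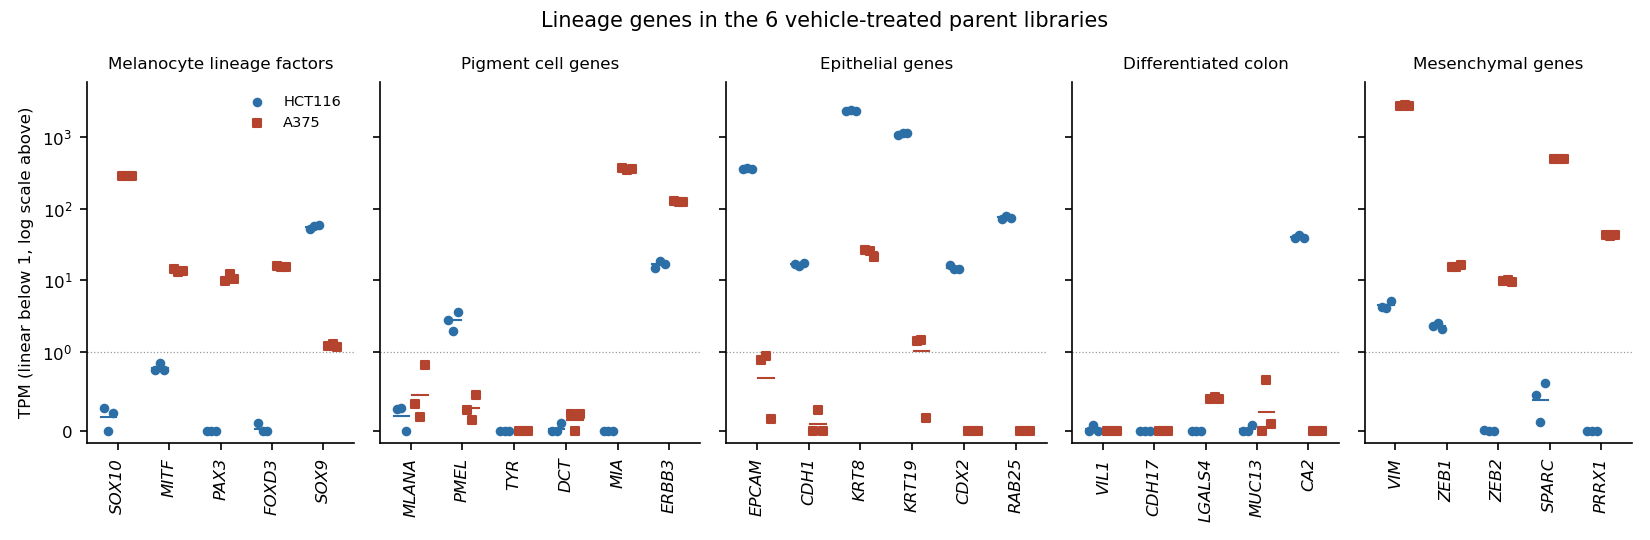
TPM of 27 lineage genes in each of the 3 HCT116 (circles) and 3 A375 (squares) vehicle libraries, with the mean as a line; the axis is linear below 1 TPM and logarithmic above, and the dotted line marks 1 TPM. SOX10 and MIA are high in A375 while TYR and DCT stay near 0, and EPCAM and KRT8 are high in HCT116 while VIL1 and CDH17 stay near 0.

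Cell junction and surface genes of epithelia were higher in HCT116 with few exceptions. All 49 were tested, and the median difference was -5.03. By more than 2-fold, 44 were higher in HCT116 (13.8% of all genes) and 2 in A375 (15.8% of all genes). CDH1, which encodes E-cadherin, was at 16.8, 15.96 and 17.4 TPM in HCT116 and at 0, 0.27 and 0 TPM in A375. CLDN7, a tight junction claudin, was at 149, 156 and 154 TPM against 0.36, 0.19 and 0.18 TPM. SPINT2, an inhibitor of membrane-bound serine proteases, was at 363, 371 and 393 TPM against 0.42, 1.5 and 0.56 TPM, and LSR, a receptor at tricellular junctions, differed by -4.86 ± 0.08 (SE). RAB25, a small GTPase of apical recycling, was at 72.9, 80.3 and 74.2 TPM in HCT116 and at 0 in A375, at least 308-fold higher in HCT116. Among those higher in A375 was CLDN1, another claudin, at 2.17, 2.22 and 1.92 TPM against 0.12, 0.06 and 0 TPM. ERBB2, TJP1 and CLDN12 did not pass the 2-fold test; the last 2 were chosen after their values were seen.

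The regulators of the epithelial state pointed the same way in most cases. ESRP1 and ESRP2, splicing factors of epithelia, were at 67.4, 67.7 and 68.0 TPM and at 40.4, 39.3 and 38.1 TPM in HCT116, and no A375 library exceeded 0.28 TPM for ESRP1 or 0.75 TPM for ESRP2. ELF3 and EHF, ETS factors of epithelia, were at 27.5, 24.5 and 25.4 TPM and at 31.3, 28.6 and 30.1 TPM in HCT116, with at most 0.17 and 0.63 TPM in A375. CDX2, the homeobox factor of intestinal identity, was at 16.3, 14.3 and 14.5 TPM in HCT116 and at 0 in A375, at least 138-fold higher in HCT116. HNF4A was low in HCT116 at 2.24, 3.56 and 3.31 TPM, and CDX1 had 0 counts in both lines. KLF5, a factor of crypt cells, did not pass the 2-fold test, at 50.9, 44.5 and 44.7 TPM in HCT116 and 47.8, 51.0 and 46.4 TPM in A375. Of 26 tested members 14 were higher in HCT116 (13.8% of all genes) and 2 in A375 (15.8% of all genes), with a median of -1.92. The 2 were GATA4 and PROX1, both at 0 in HCT116, and at least 116-fold and 78.5-fold higher in A375.

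ZEB1 and ZEB2, zinc finger repressors of epithelial genes that bind the E-box CAGGTG, which reads as CACCTG on the other strand, were higher in A375. ZEB1 was at 2.27, 2.54 and 2.09 TPM in HCT116 and at 15.2, 15.3 and 16.4 TPM in A375, and ZEB2 had 1 count in HCT116 and 9.64, 9.98 and 9.43 TPM in A375. Of the 44 junction and surface genes higher in HCT116, 27 had a RefSeq promoter entry, and 16 of these 27 (59.3%) held the letters CAGGTG or CACCTG, against 20.6% of all 27305 promoters. The windows of 3 genes are shown for their different layouts, each as the 250 bases before the start with the letters in capitals. RAB25 (chr1:156060910-156061159, plus strand) has 1 match, 41 bases before the start. S100A14 (chr1:153616326-153616575, minus strand), a calcium-binding protein gene at 96.05, 104.58 and 91.8 TPM in HCT116 and at 0.74, 0 and 0.49 TPM in A375, has 1 match 14 bases before it. CRB3 (chr19:6464021-6464270, plus strand), a polarity gene chosen after its values were seen, has 5 matches between 228 and 60 bases before the start and was at 29.4, 26.9 and 29.1 TPM in HCT116 and at 0 in A375.
RAB25: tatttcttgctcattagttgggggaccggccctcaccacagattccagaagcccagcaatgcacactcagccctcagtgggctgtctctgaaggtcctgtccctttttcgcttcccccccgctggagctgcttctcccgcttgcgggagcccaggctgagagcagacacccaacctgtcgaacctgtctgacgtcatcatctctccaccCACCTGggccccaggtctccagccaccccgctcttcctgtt
S100A14: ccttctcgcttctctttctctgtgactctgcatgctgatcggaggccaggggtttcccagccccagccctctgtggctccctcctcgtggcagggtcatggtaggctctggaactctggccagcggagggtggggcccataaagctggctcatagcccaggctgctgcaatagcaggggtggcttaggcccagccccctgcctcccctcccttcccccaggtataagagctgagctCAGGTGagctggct
CRB3: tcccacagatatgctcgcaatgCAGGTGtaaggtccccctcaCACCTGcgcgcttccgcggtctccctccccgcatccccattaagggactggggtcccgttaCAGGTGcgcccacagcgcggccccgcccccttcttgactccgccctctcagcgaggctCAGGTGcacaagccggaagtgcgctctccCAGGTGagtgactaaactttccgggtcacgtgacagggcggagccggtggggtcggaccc
No binding was measured, and the members share a direction by the way they were picked, so the share is a description.

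Keratins and plakins gave a mixed picture. KRT8 and KRT19, simple keratins of gland epithelia, were at 2339, 2380 and 2335 TPM and at 1081, 1128 and 1129 TPM in HCT116, with 26.8, 25.9 and 20.98 TPM and 1.4, 1.48 and 0.17 TPM in A375. KRT18, the partner of KRT8, was still at 347, 374.6 and 367 TPM in A375, against 1041, 1043 and 1034 TPM in HCT116, so that the 2 partners differed by -6.44 ± 0.04 and -1.46 ± 0.03 (SE). KRT80 was higher in A375, at 98.6, 97.0 and 92.3 TPM against 2.96, 2.38 and 2.16 TPM. KRT14, a basal epidermal keratin, was also higher there, at 22.7, 26.9 and 19.8 TPM with 0 counts in HCT116. KRT20, a keratin of mature gut epithelium, was below the count filter, at 0.58, 0.97 and 0.87 TPM in HCT116 and at 0 in A375. Of 18 listed members 8 reached 1 TPM in all HCT116 libraries. Of 11 tested 5 were higher in HCT116 (13.8% of all genes) and 4 in A375 (15.8% of all genes).

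Most genes of the mature colon were low in HCT116 too. Of 40 listed, 30 were below the count filter and 6 reached 1 TPM in all HCT116 libraries. Among the 10 tested 4 were higher in HCT116 (13.8% of all genes) and 3 in A375 (15.8% of all genes). Their summed level was 159 to 163 TPM in HCT116 and 168 to 173.5 TPM in A375. VIL1, the microvillus protein villin, had 1 count in all 3 HCT116 libraries, and CDH17, the liver-intestine cadherin, had 0. LGALS4, an intestinal galectin, had 0 counts in HCT116 and 6 in A375, and CEACAM5, the carcinoembryonic antigen, had 1 in each line. The 4 higher in HCT116 were CA2, PLS1, DPP4 and FCGBP. CA2, a carbonic anhydrase of colonocytes, was at 38.98, 42.4 and 38.5 TPM in HCT116 and 0 in A375, at least 256-fold higher. PLS1, an actin-bundling protein of microvilli, was at 43.3, 39.04 and 38.2 TPM in HCT116 and at 13.4, 12.55 and 13.1 TPM in A375. DPP4, a membrane peptidase, differed by -2.84 ± 0.31 (SE). FCGBP, a protein of mucus, was at no more than 0.82 TPM and differed by -1.49 ± 0.24 (SE), and without A375 replicate 2 it did not pass the 2-fold test, at -1.30. The 3 higher in A375 were TFF3, LYZ and ANPEP, all names from the intestine but also used elsewhere; ANPEP, the membrane aminopeptidase N, was at 89.2, 85.1 and 89.3 TPM in A375 and at 0 in HCT116, at least 1520-fold higher. Of the intestinal markers reported here, CDX2 was thus present in HCT116, KRT20 was below 1 TPM, and VIL1, CDH17, LGALS4 and CEACAM5 were at or near 0. EPCAM, KRT8, KRT18 and KRT19, also present in HCT116, are markers of epithelia in general, and KRT18 was high in A375 too.

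Wnt pathway genes were more often higher in HCT116. Of 25 tested, 12 were higher in HCT116 (13.8% of all genes) and 4 in A375, a share near the 15.8% of all genes, with a median of -0.89. AXIN2 and RNF43, feedback inhibitors that Wnt signalling induces, were at 9.77, 10.1 and 9.56 TPM and at 32.1, 30.5 and 36.4 TPM in HCT116, and below 0.4 TPM in every A375 library. MYC was at 286, 280 and 292 TPM in HCT116 and at 18.3, 18.1 and 19.1 TPM in A375, a difference of -3.90 ± 0.05 (SE). TCF7L2, the TCF factor of gut epithelium, was higher in HCT116 at -1.70 ± 0.05 (SE), while LEF1, its relative, was at 0 in HCT116 and at 24.7, 24.1 and 25.4 TPM in A375, at least 368-fold higher. EPHB3, BAMBI and TNFRSF19 were the other 3 higher in A375, at 2.17 ± 0.13, 2.34 ± 0.11 and 5.23 ± 0.14 (SE). LGR5 and ASCL2, markers of intestinal stem cells, had 2 and 0 counts in HCT116.

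Mesenchymal genes were mostly higher in A375. Of 27 tested genes 18 were higher in A375 (15.8% of all genes) and 1 in HCT116 (13.8% of all genes) by more than 2-fold, with a median of 2.82. In a fit of log2(TPM + 1) with no filter the median was 1.61. VIM, the intermediate filament vimentin, was at 4.27, 4.06 and 5.11 TPM in HCT116 and at 2730, 2813 and 2694 TPM in A375, a difference of 9.31 ± 0.05 (SE). SPARC, a matricellular glycoprotein, was at 0.46, 0.12 and 0.61 TPM against 493, 498 and 499 TPM. TWIST1 was at 3.65, 3.55 and 4.46 TPM against 26.8, 26.2 and 30.01 TPM, and PRRX1, a mesenchymal homeobox factor, at 0 against 42.9, 41.7 and 43.2 TPM, at least 817-fold higher in A375. SNAI1 did not pass the 2-fold test at 0.66 ± 0.13 (SE), and the call for SNAI2, at 1.80, 2.42 and 1.53 TPM in A375, ended under DESeq2 and under limma on TPM. The 1 gene higher in HCT116 was MYL9, a myosin light chain, at 55.4, 72.8 and 56.3 TPM against 10.7, 9.54 and 9.71 TPM.

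The matrix and its receptors followed in part. Of 44 tested collagen and matrix genes 28 were higher in A375 (15.8% of all genes) and 9 in HCT116 (13.8% of all genes), with a median of 2.99. The median was 2.31 with genes filtered at a mean of 5 CPM. In a fit of log2(TPM + 1) it was 1.83, and 1.24 with no filter as well. COL4A1 and COL4A2, the chains of basement membrane collagen, were at 81.3, 84.7 and 83.2 TPM and at 193, 194 and 192 TPM in A375, and at no more than 0.14 TPM in any HCT116 library. TIMP3, an inhibitor of matrix proteases, was at 453, 439 and 437 TPM in A375 and at 1.11, 0.85 and 1.23 TPM in HCT116, and LAMB1, a laminin chain, differed by 3.48 ± 0.04 (SE). VCAN, the proteoglycan versican, was higher in HCT116, at 67.4, 65.6 and 68.4 TPM against 0.48, 0.59 and 0.50 TPM, and so were LAMA5 and LAMB3, laminin chains of epithelia, at -1.88 ± 0.11 and -1.34 ± 0.09 (SE). Among 16 tested integrin subunits 9 were higher in A375 (15.8% of all genes) and 1 in HCT116 (13.8% of all genes). ITGA4, ITGB3 and ITGA1 were at 26.1, 24.7 and 25.3 TPM, at 93.0, 88.5 and 98.2 TPM and at 19.9, 16.8 and 19.3 TPM in A375, and below 1 TPM in HCT116. ITGB4, the subunit of hemidesmosomes, was at 91.3, 90.7 and 97.9 TPM in HCT116 and at 8.49, 9.12 and 9.38 TPM in A375.

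**Figure D3:**
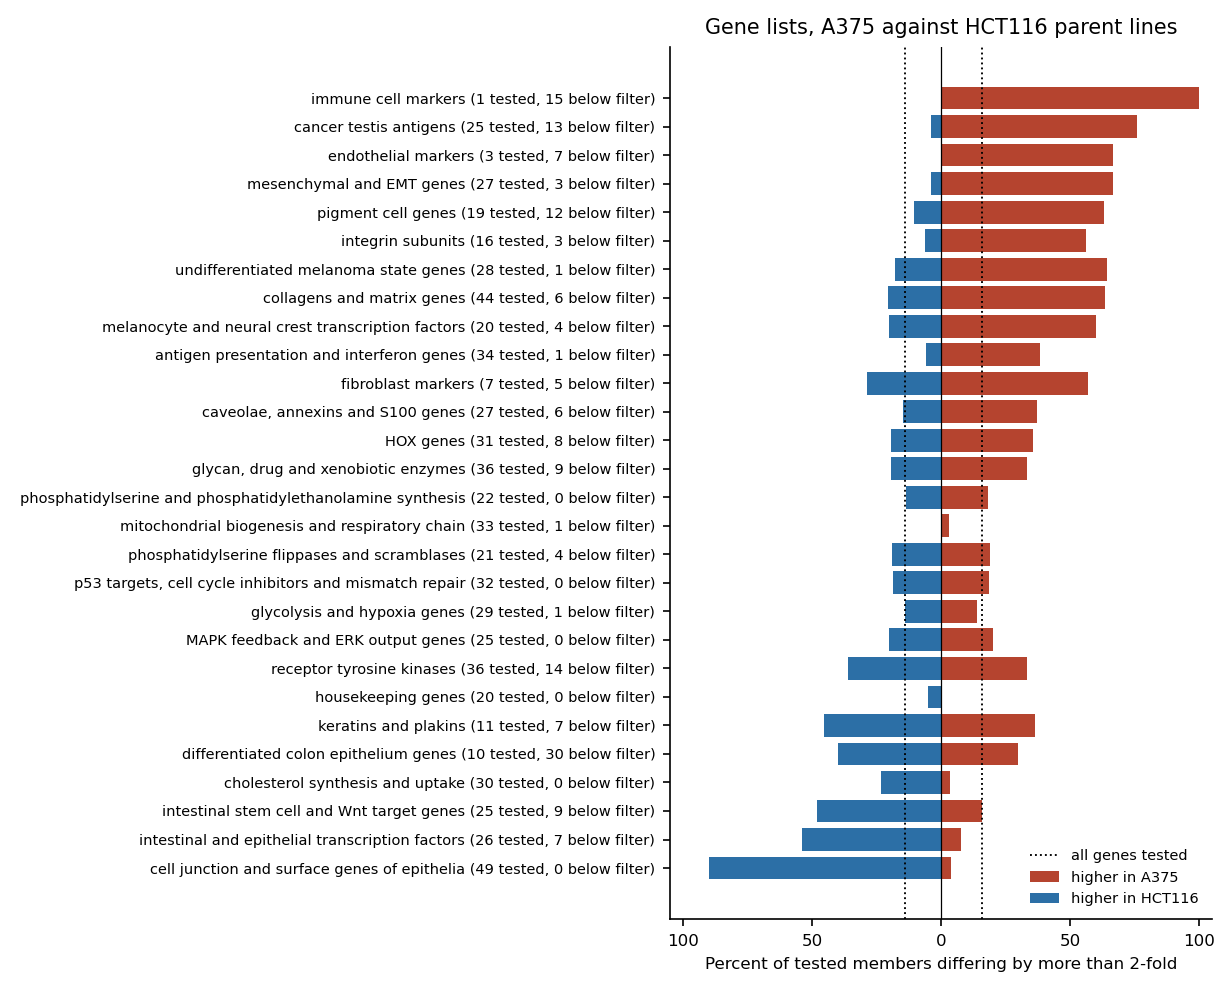
Percent of the tested members of each gene list that were higher in A375 (right) or HCT116 (left) by more than 2-fold, with dotted lines at the 15.8% and 13.8% of all genes tested. The epithelial junction list (44 of 49 higher in HCT116) lies at the bottom; lists with few tested members, such as the immune markers (1 tested), are not comparable with it.

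The 2 lines offered different growth factor receptors. Among 36 tested receptor tyrosine kinases 12 were higher in A375 (15.8% of all genes) and 13 in HCT116 (13.8% of all genes) by more than 2-fold. IGF1R was at 3.74, 3.52 and 3.89 TPM in HCT116 and at 27.4, 28.6 and 27.3 TPM in A375, and DDR2, a collagen receptor, at 0.39, 0.14 and 0.70 against 49.7, 47.7 and 45.1 TPM. MET, the hepatocyte growth factor receptor, was at 131, 125 and 127 TPM in HCT116 and at 51.5, 52.6 and 50.6 TPM in A375, and its relative MST1R at 23.9, 25.9 and 25.4 against 0.86, 1.10 and 1.19 TPM. FGFR4 and PTK7 were also higher in HCT116, at -2.37 ± 0.08 and -1.94 ± 0.05 (SE). Of 25 genes driven by or feeding back on the MAPK pathway 5 were higher in each line, against 15.8% of all genes in A375 and 13.8% in HCT116. SPRY2, an inhibitor that the pathway induces, was at 7.37, 6.68 and 5.81 TPM in HCT116 and at 144, 143 and 132 TPM in A375, and ETV4 and FOSL1, transcription factors downstream of ERK, were higher in A375 at 1.79 ± 0.05 and 1.23 ± 0.04 (SE). DUSP6, the phosphatase that acts on ERK, did not pass the 2-fold test, at 72.0, 74.9 and 70.7 TPM against 99.7, 97.1 and 94.6 TPM. EREG, the EGF receptor ligand epiregulin, was at 341, 338 and 337 TPM in HCT116 and at 0.16, 0.11 and 0.05 TPM in A375, and DUSP5 was at 94.4, 99.9 and 96.4 against 23.8, 22.8 and 22.3 TPM.

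Genes of the cell cycle brakes and of mismatch repair differed for named members rather than as a group. Of 32 tested 6 were higher in each line, against 15.8% of all genes in A375 and 13.8% in HCT116. MSH3, a mismatch repair gene, chosen after its values were seen, was at 2.57, 2.35 and 2.42 TPM in HCT116 and at 21.99, 22.3 and 21.7 TPM in A375, while the repair gene MSH6, also outside the rule, differed by 0.24 ± 0.04 (SE). CDKN2A, which encodes the CDK inhibitor p16, was at 91.2, 103 and 97.7 TPM in HCT116 and at no more than 4.55 TPM in A375, and its neighbour CDKN2B at 4.34, 4.05 and 4.23 against 0, 0.14 and 0 TPM. CDKN2C, another inhibitor of the family, was higher in A375 at 2.43 ± 0.08 (SE). The p53 targets CDKN1A and MDM2 were nearer each other, at -0.90 ± 0.04 and -0.57 ± 0.04 (SE), and GDF15, a stress-induced cytokine, was at 83.7, 98.8 and 96.6 TPM in HCT116 against 8.02, 6.90 and 6.82 TPM.

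Phosphatidylserine is made by PTDSS1 from phosphatidylcholine and by PTDSS2 from phosphatidylethanolamine, and PISD turns phosphatidylserine into phosphatidylethanolamine in mitochondria. Both synthases were expressed in both parent lines. PTDSS1 was at 104.58, 101.04 and 99.7 TPM in HCT116 and at 132, 139 and 136 TPM in A375, a difference of 0.47 ± 0.04 (SE; edgeR's quasi-likelihood test, adjusted p = 1.7e-18). PTDSS2, the gene knocked out elsewhere in the series, was at 30.3, 27.7 and 32.2 TPM in HCT116 and at 20.6, 18.8 and 19.6 TPM in A375, a difference of -0.56 ± 0.08 (SE; adjusted p = 4.3e-09 by edgeR). In the knockout clones under vehicle it was at 4.60 to 6.64 TPM in HCT116 and at 0.59 to 0.83 TPM in A375. PISD was at 37.5, 41.6 and 38.4 TPM in HCT116 and at 19.7, 22.1 and 24.2 TPM in A375, -0.78 ± 0.07 (SE). The libraries of the lines did not overlap for these 3 genes, as for 83.6% of all tested genes. The differences were below 2-fold, and PTDSS1 and PTDSS2 leaned in opposite directions.

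Around them, 4 of 22 synthesis genes were higher in A375 and 3 in HCT116 by more than 2-fold, shares near those of all genes. CHPT1, a cholinephosphotransferase, was at 26.3, 24.8 and 23.9 TPM in HCT116 and at 116, 112 and 106 TPM in A375, and PCYT1B, a form of the rate-limiting enzyme of phosphatidylcholine synthesis, was at 0 in HCT116 and at least 50.2-fold higher in A375. PCYT2, the matching enzyme for phosphatidylethanolamine, was at 45.7, 49.1 and 48.8 TPM in HCT116 and at 19.1, 21.7 and 17.96 TPM in A375, and CDS1, which makes CDP-diacylglycerol, differed by -2.16 ± 0.11 (SE). Among flippases and scramblases 4 of 21 tested were higher in each line, against 15.8% of all genes in A375 and 13.8% in HCT116. XKR8, a scramblase that exposes phosphatidylserine in apoptosis, was at 12.1, 12.6 and 12.4 TPM in HCT116 and at 0 in A375, at least 104-fold higher in HCT116. ATP10A, a phospholipid flippase, was at 0 in HCT116 and at 5.15, 5.27 and 4.56 TPM in A375, at least 124-fold higher, and ATP8B1 was higher in HCT116 at -5.50 ± 0.23 (SE). TMEM30A, the subunit that most flippases need, chosen after its values were seen, differed by less than its error, at 72.0, 71.2 and 70.7 TPM against 67.5, 68.0 and 70.5 TPM.

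Cholesterol genes leaned to HCT116. Of 30 tested, 7 were higher in HCT116 (13.8% of all genes) and 1 in A375 (15.8% of all genes) by more than 2-fold. Among the 7 was SQLE, an enzyme of sterol synthesis, which did not pass without HCT116 replicate 1 or 2 or A375 replicate 1 or 3. Without the 2-fold limit 20 were higher in HCT116 (40.4% of all genes) and 4 in A375 (43% of all genes). MVD, a decarboxylase of the mevalonate pathway, was at 90.6, 92.0 and 96.4 TPM in HCT116 and at 18.1, 13.7 and 16.7 TPM in A375. ABCA1, which exports cholesterol, was the 1 gene higher in A375, at 4.15 ± 0.19 (SE); without A375 replicate 1 there were 2. Of 33 tested mitochondrial genes 1 passed the 2-fold test (29.7% of all genes). Without that limit 19 of the 33 were higher in HCT116 (40.4% of all genes) and 5 in A375 (43% of all genes). SLC16A3, a lactate exporter, stood out of the glycolysis list at 483, 500 and 506 TPM in HCT116 and at 18.3, 18.7 and 17.2 TPM in A375. Of that list 4 of 29 tested were higher in each line by more than 2-fold, near the shares of all genes (15.8% in A375 and 13.8% in HCT116).

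A375 expressed the genes of MHC class II antigen presentation, which is usual for immune cells and is induced by the activator CIITA. CD74, the invariant chain, was at 0, 0.17 and 0.35 TPM in HCT116 and at 1293, 1309 and 1285 TPM in A375. HLA-DRA was at 1.66, 1.73 and 1.60 TPM against 525, 514 and 520 TPM, and HLA-DRB1 differed by 6.47 ± 0.14 (SE). CIITA itself, chosen after its values were seen, was at 0.07, 0.08 and 0 TPM against 36.5, 30.7 and 31.6 TPM. PTPRC, the leukocyte marker, was at 0, 0 and 0.30 TPM in the same A375 libraries, and CD3E and CD2 of T cells at 0. CD68 of macrophages was higher in A375, at 15.3, 14.6 and 12.54 TPM there. Class I genes were closer, with B2M, the shared light chain, at 0.81 ± 0.03 (SE), while HLA-C was higher in HCT116 at -1.38 ± 0.04 (SE); HLA genes vary between people and resemble each other, so their counts are uncertain. IFI16, a DNA sensor, had 1 count in HCT116 and was at 87.3, 87.2 and 85.6 TPM in A375, and ISG15, an interferon-induced modifier, was at 194, 186 and 198 TPM in HCT116 and at 13.6, 14.9 and 16.6 TPM in A375. In all 13 of 34 tested genes were higher in A375 (15.8% of all genes) and 2 in HCT116 (13.8% of all genes), with a median of 0.83.

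Class II promoters share a Y box that holds the letters CCAAT, read as ATTGG on the other strand; this motif, and HLA-DMA and HLA-DMB, were added after the values were seen. Of HLA-DRA, HLA-DRB1, HLA-DMA, HLA-DMB and CD74, 4 had a promoter entry and all 4 held it, as did 35.7% of all promoters. The window of CD74 (chr5:150412911-150413160, minus strand) is shown since that gene had the highest class II level, and its match lies 53 bases before the start.
CD74: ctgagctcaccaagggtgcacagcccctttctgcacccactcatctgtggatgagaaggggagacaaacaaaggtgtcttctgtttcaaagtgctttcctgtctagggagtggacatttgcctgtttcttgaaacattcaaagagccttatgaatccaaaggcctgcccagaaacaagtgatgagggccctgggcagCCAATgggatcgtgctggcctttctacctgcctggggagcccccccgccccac
With so common a motif the match describes the window and no more.

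Cancer testis antigens, genes of the germ line that some tumours switch on, were detected mainly in A375. Of 38 listed and in the files, 28 reached 1 TPM in all A375 libraries and 9 in all HCT116 libraries, and all 9 were among the 28. Of the 25 tested 19 were higher in A375 (15.8% of all genes) and 1 in HCT116 (13.8% of all genes). MAGEA4 was at 0, 0.13 and 0.26 TPM in HCT116 and at 1088, 1056 and 1056 TPM in A375, and MAGEA1 at 0 against 13.3, 12.2 and 13.1 TPM, at least 102-fold higher. MAGEB2 was the 1 gene higher in HCT116, at 236, 244 and 240 TPM against 1.27, 1.85 and 1.41 TPM. Several of these genes have near-identical copies, among them MAGEA3 and MAGEA6, and XAGE1A and XAGE1B had the same value in every library. Their counts are uncertain, and the median of the list, 9.06, fell to 6.67 with genes at 0 counts set to their lower bound.

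HOX genes, which mark position along the body axis, differed in both directions. Of 31 tested, 11 were higher in A375 (15.8% of all genes) and 6 in HCT116 (13.8% of all genes). HOXA2, among the 11, did not pass without HCT116 replicate 3 or A375 replicate 1 or 2. HOXB6, among the 6, did not pass without replicate 2 or 3 of HCT116 or replicate 1 or 2 of A375. HOXA9 was at 88.8, 89.2 and 95.6 TPM in HCT116 and at 0.86, 0.26 and 0.36 TPM in A375, and HOXA7 at 24.7, 26.4 and 22.8 against 0.31, 0 and 0.42 TPM. Between these and HOXA11, higher in HCT116 at -2.76 ± 0.18 (SE), lay HOXA10 at 30.7, 28.9 and 30.4 against 18.3, 20.5 and 18.8 TPM, not past the 2-fold test; HOXA10 and HOXA11 were chosen after their values were seen. HOXB2 was at 1.31, 1.92 and 2.53 TPM in HCT116 and at 75.5, 76.0 and 75.1 TPM in A375, whereas HOXB8 in the same cluster was higher in HCT116, at 62.5, 61.6 and 66.6 against 13.4, 11.1 and 12.1 TPM. HOXC10 and HOXC4 were higher in A375, at 41.95, 43.8 and 41.1 TPM and at no less than 16.6 TPM, with at most 2.44 and 0.92 TPM in HCT116. Genes of a cluster overlap, and the strand setting of the counts is not given, so neighbouring HOX values may share reads.

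**Figure D4:**
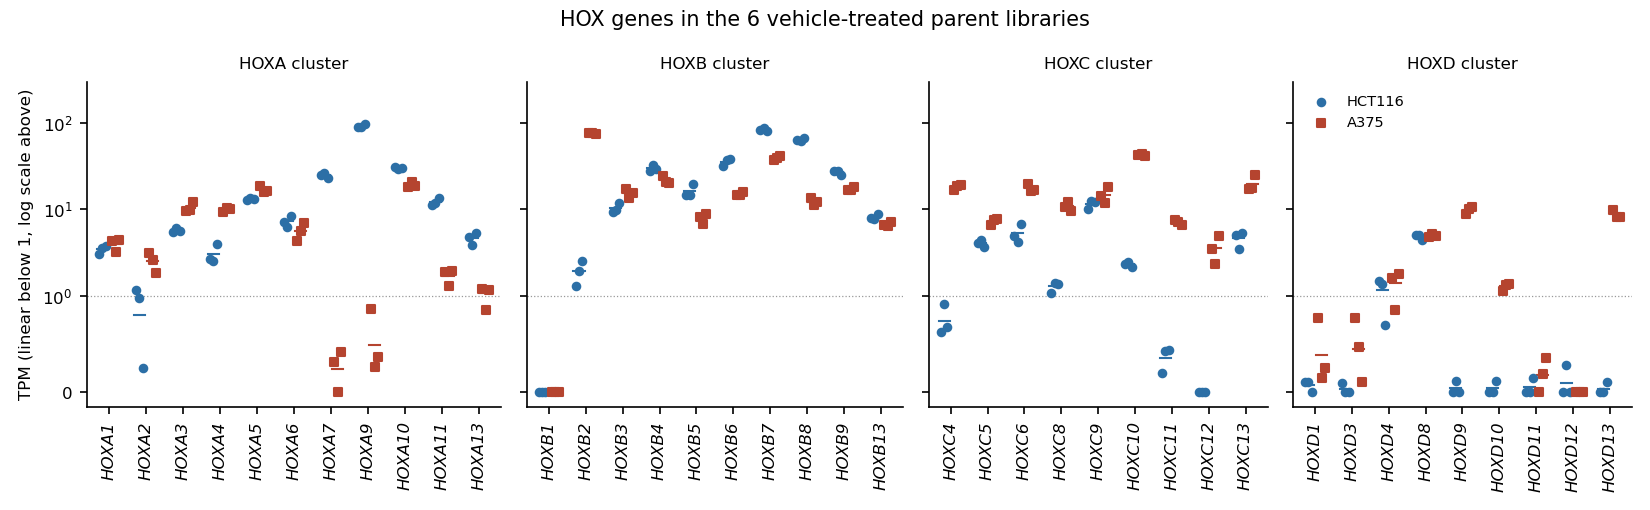
TPM of the HOX genes in the files, by cluster and position, in each of the 3 HCT116 (circles) and 3 A375 (squares) vehicle libraries, with means as lines; the axis is linear below 1 TPM and logarithmic above. HOXA7 and HOXA9 are near 0 in A375 only, and HOXB2, HOXC4 and HOXC10 are high there.

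Among the genes named for the size of their difference, those outside the lists were mostly at 0 in one line. IGFBP4, an insulin-like growth factor binding protein, was at 217, 233 and 236 TPM in A375 and at 0 in HCT116, at least 2390-fold higher. SFRP1, a secreted Wnt antagonist, was at 115, 114 and 106 TPM, at least 2368-fold higher, and BCAT1, a branched-chain amino acid transaminase, at least 2036-fold higher. NNT, the mitochondrial transhydrogenase that supplies NADPH, was at 39.1, 36.2 and 35.1 TPM in A375 and at 0 in HCT116, and stayed at 0 TPM in the HCT116 libraries with the compound and in the knockout under vehicle. In the other direction MT1E, a metallothionein, was at 1146, 1201 and 1087 TPM in HCT116 and at 0 in A375, at least 1988-fold higher. SERPINB9, an inhibitor of granzyme B, was at least 414-fold higher, and GJB2, the gap junction protein connexin 26, at least 291-fold. There were 339 genes with 0 counts in HCT116 and 100 or more in A375, and 107 the other way round.

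The line difference was then read in libraries that do not enter the comparison above. With DS07551382, 4149 of 13821 tested genes (30%) differed by more than 2-fold between the parent lines, and 2023 of those higher in A375 (92.5% of the vehicle list and 92.1% of the list with the compound) and 1759 of those higher in HCT116 (92.0% and 90.1%) were shared. Between the PTDSS2 knockout clones under vehicle 4170 of 13824 genes (30.2%) differed, with 1850 shared higher in A375 (84.6% and 85.9%) and 1675 higher in HCT116 (87.7% and 83.0%). No gene past the 2-fold test in the vehicle parents passed it in the opposite direction in either of these pairs. Of the 216 genes that the naming rule chose and that passed in vehicle, 208 passed in the same direction with the compound and 195 between the knockout clones. NT5E was the 1 of these with an opposite sign between the clones, at 0.10 against -1.37 in the parents. SOX10 stayed at 0.08 to 0.18 TPM in HCT116 and 253 to 285 TPM in A375 with the compound, and at 0 to 0.32 TPM and 224 to 249 TPM in the clones. EPCAM stayed at 343 to 374 TPM and 0.11 to 0.39 TPM with the compound, and at 411 to 424 TPM and 0 to 0.60 TPM in the clones. Pearson's r of the line differences across genes was 0.985 with the compound and 0.973 between the clones, a description since genes are not independent replicates and the libraries of a line share their cells of origin.

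**Figure D5:**
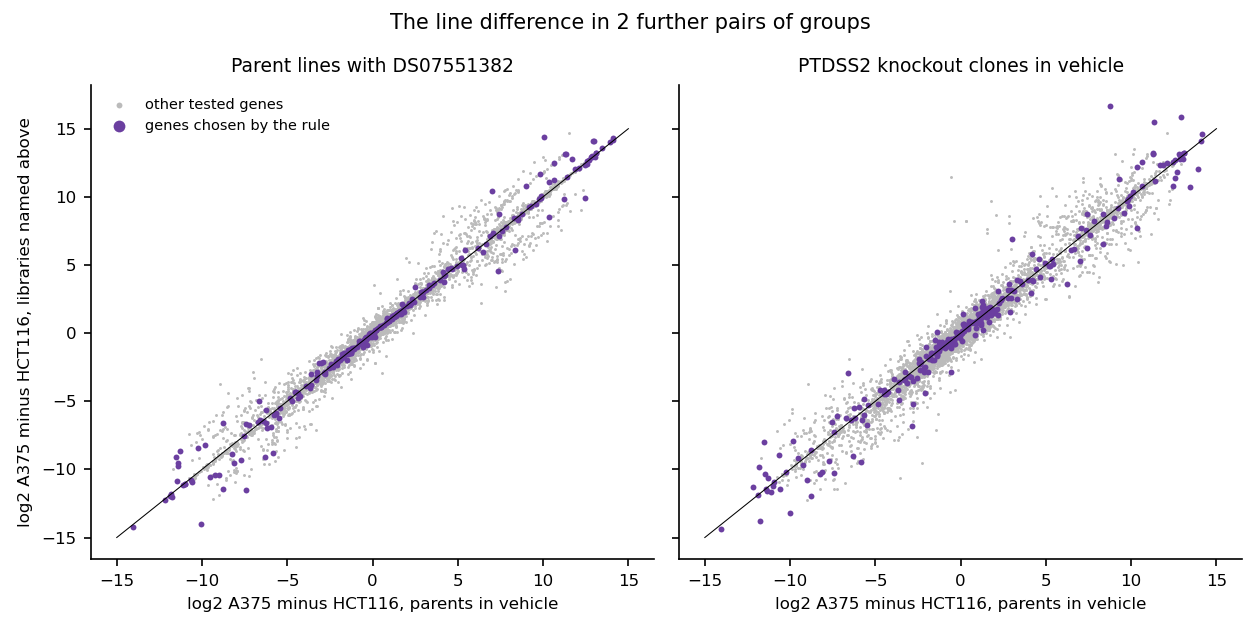
Log2 difference of A375 minus HCT116 in the vehicle-treated parents (x axis) against the same difference in the parents with DS07551382 (left) and in the PTDSS2 knockout clones in vehicle (right), for genes tested in both; purple marks the genes chosen by the naming rule and the line marks equality. Points follow the line more closely on the left (Pearson's r across genes 0.985) than on the right (0.973).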

How the data were processed

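RNA of 6 libraries was compared, 3 of HCT116 and 3 of A375 parent cells with DMSO; 12 more served as further pairs, and the 6 of the knockouts with the compound were used for levels and in 1 alternative fit of all 24 libraries. The submitters' processing notes name STAR 2.4.2a, RSEM 1.2.23 and build hg19. The annotation release, strand setting and read filters are not stated in any source at hand. Per the file headers, the deposited files give expected counts, which RSEM shares out between genes, TPM, which RSEM scaled by transcript length and library, and FPKM. The deposited FPKM, scaled by gene length and fragments, enter no result. Identifiers were matched to symbols with the RefSeq table (25220 of 25343).

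Expected counts were rounded and tested with edgeR 4.0.16 in R 4.3.3 (TMM scaling, genes kept by filterByExpr with a minimum count of 10 and a total of 15, quasi-likelihood fit, Benjamini-Hochberg adjustment over all genes, 0.05), for any difference and, with glmTreat, for one of more than 2-fold. The model was also run on simulated data, where far fewer genes differed than between these lines, so that run says little about this comparison. The common biological coefficient of variation was 2.76%. Library totals of 7705622 to 10002741 counts limit the precision for low genes. For a gene with 0 counts in a line the fold is a lower bound against 3 counts over that group, which covers counting error only. Alternatives used DESeq2 1.42.0 and limma 3.58.1, other scalings and filters, TPM with a pseudocount of 1 or 0.1, and fits without each library.

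The lines, gene lists and members were chosen with earlier results of these data known. Genes are named by 4 rules: SOX10, EPCAM, PTDSS1, PTDSS2 and PISD; the first 6 of each list; for each list and direction the 4 past the 2-fold test with the highest mean TPM; and the 15 largest differences in each direction with a mean of at least 20 TPM and no overlap. Other names are said to be chosen after their values were seen. Some genes that the rule names are not reported here.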

Additional observations from a re-analysis of the deposited data

How the results depend on the processing

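The count of genes past the 2-fold test, 4098, was within 1.5 times of this under every alternative run but one. With genes filtered at a mean of 5 CPM, which left 11308 genes tested, it was 2634, of which 1352 were higher in A375. Under the same filter, added after the data were seen, the counts were 2623 with the compound and 2695 between the knockout clones. Under DESeq2 the count was 3451, with limma-voom 3813, with limma on log2(TPM + 1) 3142 and with no filter 4903. Leaving out 1 library in turn gave at most 4151 of these, and 11337 to 11431 genes with any difference. Replicate numbers did not pair the samples (correlations of same-numbered libraries 0.0249, -0.0341 and 0.0467), and with the replicate block 2171 genes were higher in A375 and 1894 in HCT116 by more than 2-fold, and the counts were 4101 with the compound and 4160 between the clones; no count moved by 1.5 times. No direction reversed under these alternatives for any named gene with an adjusted p under 0.05 in either fit, and sign changes of other named genes were not counted. The 2-fold verdict of single named genes was the same in 5057 refits and lost in 88. Leaving out 1 library ended the 2-fold call in at least 1 fit for CD68, FCGBP, HOXA2, HOXB6, LPIN1, MSX2 and SQLE. With DESeq2 the 2-fold call ended for ATP9B, B4GALNT1, BNIP3, CD68, FCGBP, HK1, HOXA2, HOXB6, KRT86, LPIN1, MSX2, SNAI2, SQLE and TP53I3; the cause was not tested. Of the counts of list members past 2-fold 1031 were within 1.5 times of the reported count and 33 were not, and of the list medians 492 moved by less than 0.5 and 40 by more. Among these medians 1 changed sign, that of the fibroblast list, from 5.41 to -2.71 with the filter at 5 CPM. Under that filter the counts fell from 14 to 9 for intestinal factors higher in HCT116, from 3 to 1 and from 4 to 2 for mature colon genes higher in A375 and in HCT116, and from 11 to 7 for HOX genes higher in A375. The 4 flippase and scramblase genes and the 4 glycolysis genes higher in A375 were 2 with limma on log2 TPM, and the latter also with DESeq2. With limma on log2(TPM + 1) the median was 4.04 for cancer testis antigens, -3.48 for junction genes and 2.56 for neural crest factors, and with no filter as well 2.51, -3.48 and 0.84. Leaving out 1 library moved 4 of these counts, those of immune genes (CD68) in 3 fits and of cholesterol genes in 1, both higher in A375, and 2 medians, both of the endothelial list, from 4.62 to 4.06 without HCT116 replicate 2 and to 5.40 without replicate 3.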

Other observations

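Of 27 tested genes of caveolae, annexins and S100 proteins, 10 were higher in A375 (15.8% of all genes) and 4 in HCT116 (13.8% of all genes) by more than 2-fold. CAV2, a caveolin, was at 176, 177 and 171 TPM in HCT116 and at no more than 18.7 TPM in A375, while its partner CAV1 differed by -0.76 ± 0.03 (SE) and CAVIN3, a coat protein of caveolae, was higher in A375 at 2.76 ± 0.08 (SE). ANXA3, a phospholipid-binding annexin, was at 391, 373 and 374 TPM in HCT116 and at 1.42, 2.52 and 1.87 TPM in A375, whereas ANXA1 was higher in A375 at 1.35 ± 0.03 (SE).

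Among 36 tested enzymes of drug, xenobiotic and glycan metabolism 12 were higher in A375 (15.8% of all genes) and 7 in HCT116 (13.8% of all genes). NNMT, which methylates nicotinamide, was at 63.5, 70.1 and 70.7 TPM in A375 and at 0 in HCT116, at least 495-fold higher. CYP24A1, which breaks down vitamin D, was at 124, 119 and 126 TPM in HCT116 and had 1 count in A375. TYMP, thymidine phosphorylase, was higher in HCT116, at 38.3, 34.9 and 34.5 TPM against 1.49, 1.23 and 2.08 TPM, and FUT4, a fucosyltransferase, at -5.67 ± 0.24 (SE).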
